A study of Homo sapiens with 9 samples.

Results

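HK-1 cells exposed to 20 µM baicalein were compared with untreated HK-1 cells on 6 of the 9 arrays of the study, the 3 labelled 20 µM and the 3 labelled non treatment. HK-1 is an established human nasopharyngeal carcinoma line, grown here as a monolayer in petri dishes. The treated cells were kept with 20 µM baicalein for 24 h and then in full medium for another 24 h before RNA was taken. The control cells had no baicalein by their labels, and the study's methods give its controls the DMSO solvent. The other 3 arrays held cells after 10 µM baicalein on the same schedule, and they entered only the estimate of the spread and the side-by-side values below. The submitters describe 3 biological replicates per condition, all of 1 cell line.

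Baicalein is a flavone from the root of Scutellaria baicalensis and is best known as an inhibitor of lipoxygenases and as a chelator of iron. Cells conjugate flavones to glucuronides and sulfates and pump the conjugates out through ABC transporters. The study was concerned with adhesion and migration of nasopharyngeal carcinoma cells, which depend on focal adhesions, the sites where integrins tie the extracellular matrix to the actin cytoskeleton.

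Each array gave, for 39200 spots, a raw intensity, a local background and their difference, the net intensity. Of the 29187 gene probes, 25378 name a gene and were tested, for 19402 gene names. A probe counted as above the empty spots on an array when it was brighter in net intensity than 95% of the 8926 spots of that array that carry no probe. This limit was 1823, 1303 and 1378 on the 20 µM arrays and 1430, 1333 and 1266 on the control arrays. Background made up 86.5% to 88.4% of the median raw intensity over the 9 arrays, and most probes lay near the empty spots, with 812 named probes past the limit on all 6 arrays and 19186 on none. The share of named probes that passed was 6.95%, 7.64% and 8.07% on the 20 µM arrays, against 17.4%, 9.07% and 9.20% on the control arrays, where control replicate 1 stood apart. It was 8.80% to 8.95% on the 10 µM arrays. A probe is called bright below when its mean log2 net intensity over the 6 arrays exceeded the mean log2 limit of those arrays, as 2028 probes (7.99%) did.

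The array of 20 µM replicate 2 differed from the other 8 over the later part of its spots. Isolated bright spots, at over 4 times the array median on the 10 µM and control arrays with both neighbours under 1.41 times, were followed through the order in which the files list the spots, cut into 10 equal segments. On 20 µM replicate 2, all 86 such spots of segment 1 showed signal over 2 times the array median at their own place, and 1.16% of them at the spot listed just before. In segment 6 those shares were 97.4% and 53.2%, and in segment 10 they were 36.2% and 97.1%. On the 6 arrays of 10 µM and control cells the share at the preceding spot was at most 4.29% in any segment, and on 20 µM replicates 1 and 3 it was at most 5.81%. The late spots of 20 µM replicate 2 thus held, in whole or in part, the signal that the other arrays list 1 spot later. UBE2C, which marks proteins for destruction in mitosis, shows the pattern. Its net intensity was 14881, 900 and 16001 on the 20 µM arrays and 19029, 21810 and 17532 on the control arrays. The empty spot listed just before it read 14267 on 20 µM replicate 2 and 990 to 1182 on the other 8 arrays. Without 20 µM replicate 2 its difference was -0.01 on the log2 scale, against -2.25 with it. Over all named probes, log2 net intensity of 20 µM replicate 2 correlated with the other arrays at r of 0.631 to 0.706, that of 20 µM replicate 1 at up to 0.814, and that of 20 µM replicate 3 at up to 0.896. Results are therefore also given without 20 µM replicate 2 where that moved them most, and the part of the displacement in each result was not tested. Differences below are between means of normalized log2 values, and overlap of the groups is judged on the same values unless net intensity is named, so both can depart from the net intensities printed beside them.

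**Figure D1:**
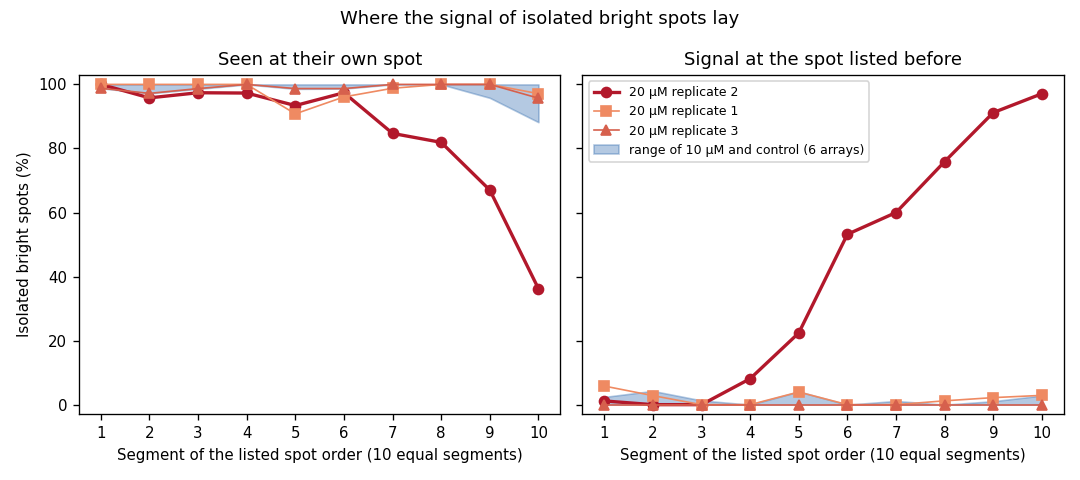
Share of isolated bright spots (percent) with signal over 2 times the array median at their own spot (left) and at the spot listed just before (right), by segment of the listed spot order. On 20 µM replicate 2 the share at the preceding spot climbs to 97.1% in segment 10, and on the other 8 arrays it is at most 5.81% in any segment.

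The labelled cell type could be checked only in part. Of 24 squamous epithelial markers measured, 3 passed the limit on every one of the 6 arrays, which were CLDN4 of tight junctions, JUP of desmosomes and ITGB4 of hemidesmosomes, and 19 were above on none, among them KRT14, EPCAM, CDH1 and TP63. The summed net intensity of the list was 28310 to 36470 on the 20 µM arrays and 33400 to 42560 on the control arrays. Of 13 leukocyte markers none was above on all 6 arrays and 10 were above on none, PTPRC included, with sums of 12890 to 16750 in 20 µM and 14440 to 18350 in control. Of 10 fibroblast markers PDGFRB alone was above on all 6 arrays, while COL1A1, COL3A1 and DCN were above on none, and the sums were 13700 to 15020 in 20 µM and 14990 to 17990 in control. Of 10 endothelial markers none was above on all 6 arrays and 5 were above on none, PECAM1 and CDH5 included, with sums of 11340 to 12610 in 20 µM and 11060 to 14030 in control. The part of such transcripts in the results below was not tested. In bulk RNA, fewer cells of a type and less RNA per cell cannot be told apart.

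No probe differed between 20 µM baicalein and control after adjustment. With limma over the 9 arrays, 0 of 25378 named probes (0.0%) had a Benjamini-Hochberg adjusted p under 0.05, and the lowest adjusted p was 0.881. At an unadjusted p under 0.05 there were 1332 probes (5.25%), of which 703 (2.77%) had a higher and 629 (2.48%) a lower mean in 20 µM. By gene, taking for each the probe of highest mean value, 1021 of 19402 (5.26%) passed, and 1092 (5.63%) without 20 µM replicate 2. Among those 1332 probes, 52.8% had the higher mean in 20 µM. Among the 594 probes past the same threshold from raw intensity the share was 17.8%, among 1331 from net intensity 39.9%, and 32.4% among 1423 in the authors' table. The groups did not overlap for 2709 named probes (10.7%), 1182 higher and 1527 lower in 20 µM. An exact permutation test of 3 arrays against 3 cannot go below p = 0.1 for any single probe. The median standard error of a difference was 0.51 on the log2 scale over all named probes and 0.46 over bright ones. The equal-variance t-test of the study's methods, run on the same values, called 1 probe after adjustment, LOC100132288 (adjusted p = 0.0369), whose net intensity was 1072, 989 and 1041 in 20 µM, against 1589, 1241 and 1159 in control. That probe was above the empty spots on 1 control array and on no 20 µM array.

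Bright probes leaned lower in 20 µM. Of the 2028, 1466 had a lower and 562 a higher mean, and the median difference was -0.24, against -0.02 over all named probes. Brightness was set on the net intensities of the same arrays that are compared, so a probe can be bright through either group alone. The lean is therefore not independent of that choice, and the part of the choice in it was not tested. At an unadjusted p under 0.05, 36 (1.78%) were higher and 106 (5.23%) lower, and the groups did not overlap, on the lower side, for 272 (13.4%). Within the batches that share a scan date, each of which holds 1 array of each group, the median difference of the bright probes was -0.25, -0.34 and -0.04. Without 20 µM replicate 2 it was -0.14, with 51 (2.51%) higher and 61 (3.01%) lower. Over segments 1 to 3 of the listed order, where 20 µM replicate 2 showed isolated bright spots at their own place, 576 probes were bright, their median difference was -0.20, and 1 was higher and 17 lower at an unadjusted p under 0.05. The direction depended on the scaling, since the median difference of bright probes was 0.03 after cyclic loess, -0.54 with median centring alone, -0.10 from raw intensity, -0.16 from net intensity and -0.85 in the authors' table, whose unit is not known.

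Detection leaned the same way. Of the named probes, 147 passed the empty-spot limit in all 3 control arrays but in none of 20 µM, and 0 did so the other way round. Of these 147, 50 were above on all 3 arrays of 10 µM. An unadjusted p under 0.05 was found for 51 of the 147, against 5.25% of all named probes. The 147 were chosen on the same arrays that give this p, so the count of 51 is not a separate test. Without 20 µM replicate 2 the counts were 211 and 7, a condition asked of fewer arrays and so easier to meet. For 10 µM against the same control arrays they were 31 and 1. Both comparisons share the control arrays, and the limit itself was highest on 20 µM replicate 1.

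**Figure D2:**
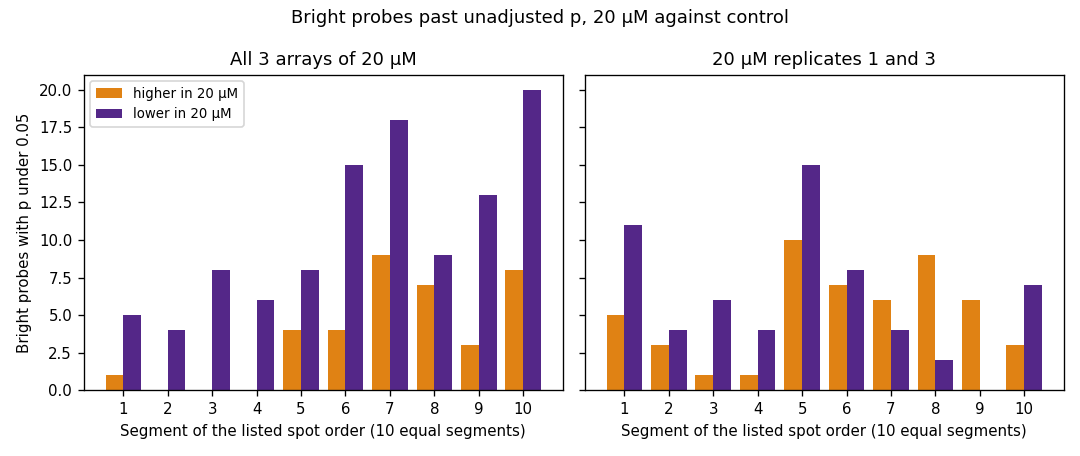
Number of bright probes with an unadjusted p under 0.05, higher or lower in 20 µM baicalein than in control, by segment of the listed spot order, with all 3 arrays of 20 µM (left) and with replicates 1 and 3 only (right). With all 3 arrays, segments 1 to 4 hold 1 higher probe between them and segments 5 to 10 hold 3 to 9 each, while lower probes number 4 to 8 in segments 1 to 5 and 9 to 20 in segments 6 to 10.

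The bright probes with a higher mean in 20 µM came mainly from 1 array. Of the 36 at an unadjusted p under 0.05, 20 µM replicate 2 was the brightest of the 6 arrays in 25 and 20 µM replicate 1 in 8, and 31 lay in segments 6 to 10, which hold 48.9% of bright probes. In 23 of the 25 the next listed spot was bright on the 10 µM and control arrays, which is so for 6.76% of all bright probes. All 36 kept a higher mean without 20 µM replicate 2, and 19 an unadjusted p under 0.05. The remaining arrays took part in the choice of the 36, so the kept direction is not a separate test.

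HMGN2, a nucleosome-binding protein that loosens chromatin, had the lowest p among them. Its net intensity was 1205, 7485 and 1697 in 20 µM, against 957, 946 and 930 in control. It was above the empty spots on 2 of 3 arrays in 20 µM and on none in control, and the groups did not overlap. On the normalized scale the 20 µM mean was at least 2.63-fold higher, and at least 1.15-fold without 20 µM replicate 2, the control arrays giving only a bound. The fitted difference was 3.14 ± 0.82 (SE) with an adjusted p of 0.881 by limma. The next listed spot, TMEM100, read 16474 on 20 µM replicate 2 and 15146 to 21823 on the other 8 arrays. Without 20 µM replicate 2 the HMGN2 difference was 1.98.

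ACOT13, a mitochondrial acyl-CoA thioesterase, had 2634, 37930 and 1140 in 20 µM, against 1031, 895 and 914 in control. It was above the empty spots on 2 of 3 arrays in 20 µM and on none in control. The value of 37930 on 20 µM replicate 2 sat next to PLA2G5, which read 33597 to 47620 on the other 8 arrays and 1028 on that one. The difference was 4.03 ± 1.16 (SE) with all arrays and 2.14 without 20 µM replicate 2, while the second ACOT13 probe had -0.33.

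GRSF1, an RNA-binding protein of mitochondrial RNA granules, had 2063, 5734 and 1160 in 20 µM, against 1190, 850 and 925 in control, and passed the limit on 2 of 3 arrays in 20 µM and on none in control. The second GRSF1 probe had a difference of -0.31. CCDC51, a mitochondrial inner-membrane protein, had 6019, 13820 and 1063 in 20 µM, against 1339, 1085 and 879 in control, with the same counts above the limit, and the groups overlapped. PRSS22, a secreted serine protease of airway epithelium, had 3035, 8040 and 1240 in 20 µM, against 1308, 1099 and 1114 in control, and passed on 2 of 3 and 0 of 3 arrays. In all 3 genes both 20 µM replicates 1 and 2 were high and replicate 3 was not. The next listed spot was bright on the other 8 arrays in each. It read 18762 to 31176 there after GRSF1, 9641 to 16430 after CCDC51 and 5957 to 11930 after PRSS22. On 20 µM replicate 2 these spots read 17798, 10868 and 740, in that order. The difference was 2.76 for GRSF1, 3.27 for CCDC51 and 2.29 for PRSS22 with all arrays, and 1.66, 2.10 and 1.29, in that order, without 20 µM replicate 2.

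RTF1, a subunit of the transcription elongation factor PAF1 complex, passed on 20 µM replicate 2 alone, at 19108, against 1587 and 1322 on the other 20 µM arrays and 802 to 1164 in control. MIF, a pro-inflammatory cytokine, likewise passed on 20 µM replicate 2 alone, at 5710, against 941 to 1047 in control, and the spot after it, SRFBP1, read 3169 to 14408 on the other 8 arrays and 1044 there. PRM1, the protamine that packs sperm DNA, read 8680 on 20 µM replicate 2 alone, against 895 to 1055 in control, and its second probe had a difference of -1.25. ZNF407, a zinc-finger protein, had 1095, 8603 and 1606 in 20 µM, against 1172, 891 and 887 in control, passing on 2 of 3 and 0 of 3 arrays, while its other 3 probes had lower means in 20 µM. The spot after ZNF407 read 7269 to 13396 on the other 8 arrays and 1171 on 20 µM replicate 2. C2orf58 differed from these in that 20 µM replicate 3 was the high array, with 1577, 1271 and 3247 in 20 µM, against 1412, 1029 and 946 in control, passing on 1 of 3 and 0 of 3 arrays. Without 20 µM replicate 2 the difference was 1.47 for RTF1, 0.99 for MIF, 1.09 for PRM1 and 1.49 for ZNF407, against 3.13, 2.29, 2.57 and 2.81 with all arrays, in that order, and for C2orf58 it was 2.12, against 1.73.

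**Figure D3:**
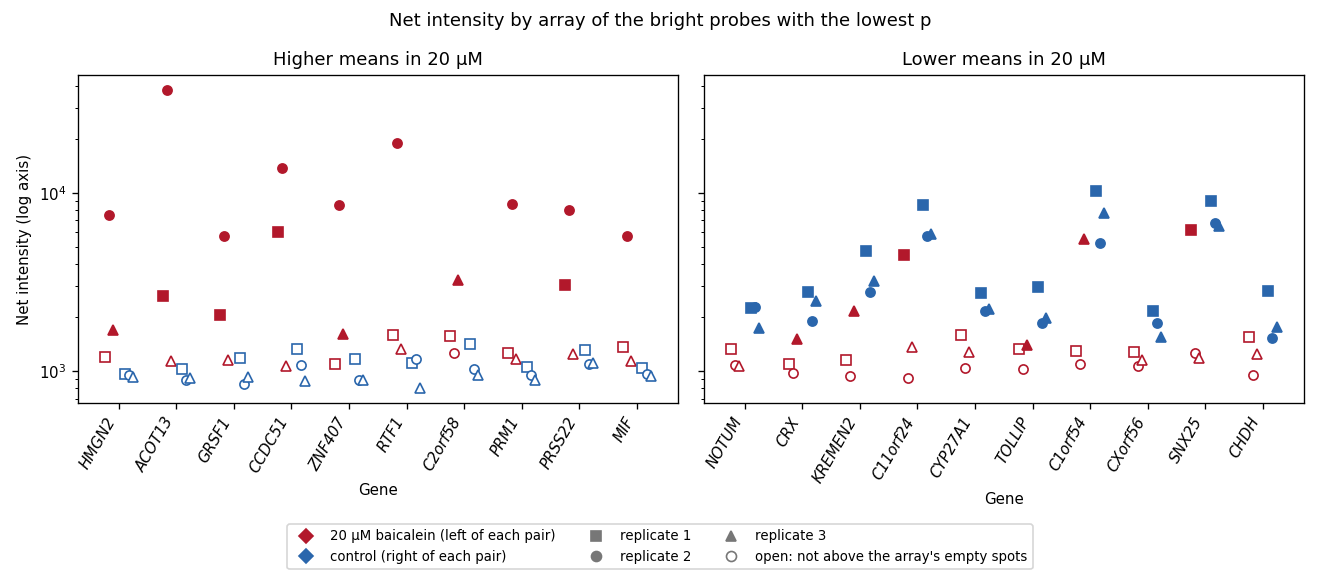
Net intensity (log axis) on each array of 20 µM baicalein (red, left of each pair) and control (blue, right of each pair) for the 10 bright probes of lowest p with a higher mean in 20 µM and the 10 with a lower mean. Open symbols are at or below the limit set by the array's empty spots, and replicate 2 (circles) is the highest 20 µM array in 9 of the 10 genes on the left.

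With 20 µM replicate 2 left out, the bright probes with a higher mean rested on 1 array again. Of the 51 at an unadjusted p under 0.05, 20 µM replicate 1 was the brightest of the 6 arrays in 38. EPHA5, an ephrin receptor, had 18772, 790 and 1310 in 20 µM, against 1229, 853 and 881 in control. ZNF225, a zinc-finger protein, had 25778, 938 and 1310 in 20 µM, against 1195, 955 and 1025 in control, and BIRC3, an inhibitor of apoptosis induced by NF-kB, had 9083, 919 and 1117 in 20 µM, against 1269, 878 and 872 in control. AKT2, a kinase of insulin signalling, had 7086, 1020 and 1148 in 20 µM, against 1092, 1054 and 850 in control. Each of these 4 passed the limit on 20 µM replicate 1 and on no control array, and their differences without 20 µM replicate 2 were 4.25 for EPHA5, 3.92 for ZNF225, 3.19 for BIRC3 and 2.92 for AKT2. The ZNF225 and BIRC3 spots are neighbours in the listed order. DDX4, an RNA helicase of germ cells, was high on 20 µM replicate 3 instead, at 6767, against 849 to 1106 in control. LOC100287510 passed on 2 of 3 arrays in 20 µM, with 4009, 991 and 2435, and on 1 of 3 in control, with 1415, 1159 and 1302.

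Of the 106 bright probes with a lower mean in 20 µM at an unadjusted p under 0.05, 20 µM replicate 2 was the dimmest of the 6 arrays in 70, and 75 lay in segments 6 to 10. All 106 kept a lower mean without that array, and 33 an unadjusted p under 0.05. The 106 were chosen with the remaining arrays included, so the kept direction is not a separate test. In 80 of the 106 the 10 µM mean was also below control. That comparison uses the same control arrays, which took part in the choice of the 106, so the count is not independent of it.

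NOTUM, a secreted enzyme that inactivates Wnt proteins, had 1332, 1086 and 1071 in 20 µM, against 2256, 2276 and 1754 in control. It was above the empty spots on no array of 20 µM and on all 3 of control, and the groups did not overlap. Control was at least 1.63-fold brighter on the normalized scale, and the difference was -1.70 ± 0.43 (SE) with an adjusted p of 0.881 by limma. It was -1.12, -2.06 and -1.93 in the 3 scan batches and -1.78 without 20 µM replicate 2. In 10 µM the NOTUM probe read 2216, 1497 and 2309, with a mean 0.03 above control.

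KREMEN2, a receptor for the Wnt inhibitor DKK1, had 1147, 933 and 2178 in 20 µM, against 4693, 2796 and 3223 in control, passing on 1 of 3 and 3 of 3 arrays, with a difference of -2.33 ± 0.65 (SE), and -1.70 without 20 µM replicate 2. CRX, a homeobox factor of photoreceptors, had 1093, 971 and 1509 in 20 µM, against 2787, 1905 and 2473 in control, with the same counts above the limit, with a difference of -1.86, and -1.55 without that array, while its second probe had a difference of 1.29. In both genes the 10 µM arrays were nearer to control, at 2291 to 3261 for KREMEN2 and 2027 to 2440 for CRX.

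CYP27A1, the sterol 27-hydroxylase of bile acid synthesis, had 1587, 1046 and 1285 in 20 µM, against 2745, 2175 and 2222 in control. It passed on no array of 20 µM and on all 3 of control, which was at least 1.95-fold brighter on the normalized scale, and 1.94-fold with 20 µM replicate 2 left out. The 10 µM arrays read 3704, 1750 and 2385. CHDH, the mitochondrial choline dehydrogenase, had 1555, 953 and 1240 in 20 µM, against 2830, 1530 and 1773 in control, passing on none and on all 3 arrays, and its second probe had a difference of 0.93.

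TOLLIP, an adaptor that dampens Toll-like receptor signalling, had 1337, 1024 and 1405 in 20 µM, against 2974, 1853 and 1984 in control, passing on 1 of 3 and 3 of 3 arrays. CXorf56 had 1287, 1064 and 1161 in 20 µM, against 2166, 1855 and 1556 in control, passing on none and on all 3 arrays. For both genes, as for CYP27A1 and CHDH, the groups did not overlap after normalization, though for CHDH they did in net intensity. The difference was -1.57 for CYP27A1, -1.47 for CHDH, -1.48 for TOLLIP and -1.37 for CXorf56 with all arrays, and -1.34, -1.06, -1.20 and -1.34, in that order, without 20 µM replicate 2. On that array the spot listed before read 1807 for CYP27A1, 1477 for CHDH and 1443 for TOLLIP. It read at most 1168, 1136 and 1204, in that order, on the other 8 arrays. For CXorf56 it read 906 on 20 µM replicate 2 and 970 to 1521 on the others.

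C11orf24, C1orf54 and SNX25, a sorting nexin, split the 20 µM arrays. C11orf24 had 4500, 909 and 1359 in 20 µM, against 8580, 5743 and 5917 in control. SNX25 had 6168, 1261 and 1184 in 20 µM, against 8987, 6759 and 6553 in control. C1orf54 had 1302, 1098 and 5547 in 20 µM, against 10308, 5254 and 7674 in control. Each passed on 1 of 3 arrays in 20 µM and on all 3 in control. The difference was -2.84 for C11orf24, -2.37 for SNX25 and -2.64 for C1orf54, and -1.74, -1.96 and -1.98, in that order, without 20 µM replicate 2. The second C11orf24 probe had a difference of 0.26. On 20 µM replicate 2 the spot listed before it read 3844 for C11orf24, 3691 for SNX25 and 3070 for C1orf54, and on the other 8 arrays at most 1536, 1123 and 1461, in that order.

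Within segments 1 to 3 of the listed order, where 20 µM replicate 2 showed its own spots, the lower bright probe of lowest p was TBK1, a kinase that activates interferon regulatory factors. It had 1070, 1232 and 1455 in 20 µM, against 2671, 1987 and 2420 in control, passing on 1 of 3 and 3 of 3 arrays, with a difference of -1.47 ± 0.49 (SE) and no overlap. TNNC2, troponin C of fast skeletal muscle, was above the limit on all 6 arrays, with 2019, 1331 and 1574 in 20 µM, against 3133, 2573 and 2972 in control, a difference of -1.07 ± 0.40 (SE). Its second probe had 0.03. CEP192, a scaffold of centrosome maturation, had 1419, 1163 and 1308 in 20 µM, against 2370, 2106 and 1872 in control, and SEC63, of the endoplasmic reticulum translocon, had 1214, 1083 and 1344 in 20 µM, against 2091, 1755 and 1599 in control. Both passed on no array of 20 µM and on all 3 of control. GNPNAT1, of hexosamine synthesis, had 1784, 873 and 1249 in 20 µM, against 2593, 1473 and 1922 in control, with the same counts, and its difference was -1.54, and -0.82 without 20 µM replicate 2. For TBK1, TNNC2, CEP192, SEC63 and GNPNAT1 the groups did not overlap after normalization, though for GNPNAT1 they did in net intensity, and each had an adjusted p of 0.881 by limma.

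With 20 µM replicate 2 left out, the lower bright probes of lowest p included LOC730101, SOX9 and ST6GAL2 beside NOTUM, CXorf56 and TBK1. SOX9, a transcription factor of progenitor and cartilage cells, had 809, 2257 and 1840 in 20 µM, against 4740, 2713 and 3810 in control, passing on 2 of 3 and 3 of 3 arrays. ST6GAL2, a sialyltransferase, had 1121, 1210 and 1116 in 20 µM, against 2287, 1292 and 1935 in control, passing on 0 of 3 and 2 of 3 arrays, and in 10 µM it read 1071, 1120 and 1079, below every control array too. LOC730101 had 2152, 2363 and 1132 in 20 µM, against 6622, 2945 and 3334 in control, passing on 2 of 3 and 3 of 3 arrays.

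Adhesion and matrix genes, the subject of the study, were described by 6 lists. Of their members given here, 21 were above the empty spots on at least 4 of the 6 arrays. In 20 µM, 17 of these 21 had a lower mean than control, 16 without 20 µM replicate 2, and 0 had an unadjusted p under 0.05. For comparison, 1466 of the 2028 bright probes had a lower mean. The genes and the bright probes were each chosen by their signal on the compared arrays, so neither share is independent of that choice.

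**Figure D4:**
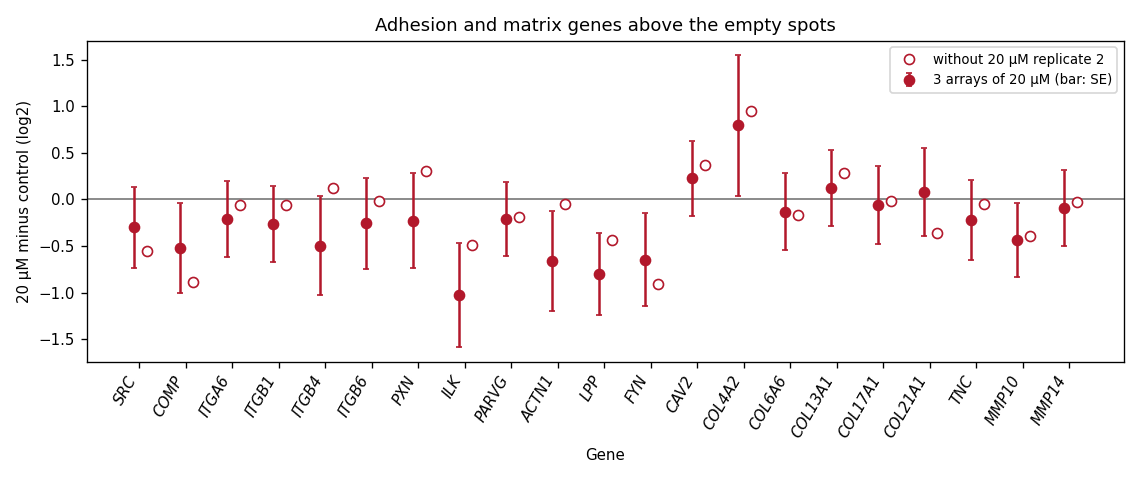
Difference between 20 µM baicalein and control on the log2 scale (filled, bar: SE) for 21 adhesion and matrix genes above the empty spots on at least 4 of 6 arrays, and the same without 20 µM replicate 2 (open). Most points lie below 0 and ILK is lowest at -1.03, and ITGB4 and PXN cross to above 0 without that array.

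Integrins are the matrix receptors of focal adhesions. Of 26 subunits, 4 were bright, all with lower means, and 14 were above the limit on none of the 6 arrays. ITGB1, the common beta subunit, had 4640, 2331 and 3851 in 20 µM, against 6505, 4397 and 4681 in control, above the limit on all 6 arrays, with a difference of -0.26 ± 0.41 (SE), and -0.055 without 20 µM replicate 2. ITGA6, its laminin-binding partner, had 4870, 3150 and 5388 in 20 µM, against 8344, 5413 and 5412 in control, above on all 6, with a difference of -0.21, and -0.056 without that array. ITGB4, the hemidesmosome subunit, had 3818, 1444 and 4420 in 20 µM, against 6160, 3475 and 4052 in control, above on all 6. Its difference was -0.50 with all arrays and 0.12 without 20 µM replicate 2. The median difference of the integrin list was -0.20, and -0.04 without that array, the same as the -0.04 over all genes. Of the list, 2 subunits were higher and 1 lower at an unadjusted p under 0.05, against 5.26% of all genes. ITGA9 and ITGAE were the higher ones and ITGA4 the lower, and each was above the limit on at most 1 of 6 arrays.

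ITGB8, the beta subunit of a receptor that activates latent TGF-beta and the gene the study followed, was not above the empty spots on any of the 6 arrays with either of its 2 probes. The first read 886, 1179 and 1141 in 20 µM, against 1242, 1172 and 1076 in control, with a difference of -0.54 ± 0.56 (SE), and -0.995 without 20 µM replicate 2. The second read 1008, 1015 and 1115 in 20 µM, against 1339, 1122 and 814 in control, with a difference of -0.01 ± 0.51 (SE). In both the groups overlapped, and no fold can be given for a probe that is dim in both. In 10 µM the first probe read 1085, 931 and 809 and the second 1203, 983 and 1094, also not above the limit on any array.

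The study's own list of 26 focal adhesion genes, which was chosen on these control arrays and so is not independent evidence of a direction, had 10 higher and 16 lower means in 20 µM, with a median of -0.17. At an unadjusted p under 0.05, 1 was higher and 3 were lower, against 5.26% of all genes, and 0 passed after adjustment. The 1 higher gene was COL2A1 and the 3 lower ones were PAK6, PIK3R1 and MYLK3, none of them above the limit on any of the 6 arrays. Of the 26, 20 were above on none. COMP, a matrix glycoprotein, alone was above on all 6, with 2049, 2922 and 2810 in 20 µM, against 4804, 3591 and 3568 in control, and a difference of -0.52 ± 0.49 (SE), and -0.88 without 20 µM replicate 2. The groups did not overlap in net intensity but did after normalization. SRC, the tyrosine kinase of adhesion turnover, had 1285, 1433 and 1441 in 20 µM, against 2059, 1504 and 1464 in control, and passed on 2 of 3 and 3 of 3 arrays. EGFR, the epidermal growth factor receptor, passed on 20 µM replicate 2 alone, at 2255, against 931 and 1079 on the other 20 µM arrays and 914 to 1171 in control.

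Of 45 adaptors and kinases that link integrins to actin, 33 had a lower and 12 a higher mean in 20 µM, with a median of -0.25, and -0.22 without 20 µM replicate 2. Over all genes 47.2% had a higher mean. None had an unadjusted p under 0.05, and 29 were above the limit on no array. ILK, the integrin-linked pseudokinase, had 1452, 1019 and 2040 in 20 µM, against 2960, 1837 and 2011 in control, passing on 1 of 3 and 3 of 3 arrays, with a difference of -1.03 ± 0.56 (SE), and -0.49 without that array. LPP, a LIM protein of focal adhesions, had 2710, 1314 and 2023 in 20 µM, against 3980, 3000 and 2708 in control, above on all 6, with a difference of -0.80 ± 0.44 (SE), and -0.44 without that array. FYN, a Src-family kinase, had 1948, 2359 and 2870 in 20 µM, against 5549, 3559 and 3004 in control, above on all 6, with a difference of -0.65 ± 0.50 (SE). CAV2, a caveola protein, was the brightest of the list and had 18987, 13945 and 18710 in 20 µM, against 19090, 17023 and 18141 in control. Its normalized difference was 0.23, although its mean net intensity was lower in 20 µM.

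Of 44 collagens, 26 had a higher and 18 a lower mean, with a median of 0.12, and 1 passed an unadjusted p under 0.05 each way, COL2A1 higher and COL1A2 lower, both dim on all 6 arrays. COL4A2, a basement-membrane chain, had 4086, 1338 and 1129 in 20 µM, against 1552, 1080 and 1594 in control, passing on 2 of 3 arrays of each group, and its mean rested on 20 µM replicate 1. Of 21 laminins and other basement-membrane proteins none passed, with a median of -0.10. TNC, tenascin C, had 8707, 5645 and 8308 in 20 µM, against 12641, 9862 and 8859 in control, above on all 6, with a difference of -0.22, and -0.046 without 20 µM replicate 2. Of 27 matrix metalloproteinases and inhibitors 1 had an unadjusted p under 0.05. It was MMP16, a membrane-type metalloproteinase, with 1010, 1195 and 1090 in 20 µM, against 1931, 1695 and 1386 in control, above the limit on no array of 20 µM and on all 3 of control. Its difference was -1.38 ± 0.46 (SE), and -1.79 without 20 µM replicate 2, while in 10 µM it read 1989, 1369 and 1522. MMP10 had 3470, 2070 and 2543 in 20 µM, against 4824, 3754 and 4078 in control, above on all 6 without overlap, with a difference of -0.44 ± 0.40 (SE), and MMP14, the membrane-type collagenase, had -0.09. Of 22 genes of the epithelial-mesenchymal transition 1 was higher and 0 were lower at an unadjusted p under 0.05, against 5.26% of all genes. The higher one was CDH11, a mesenchymal cadherin, with 1377, 1338 and 1084 in 20 µM, against 1171, 964 and 855 in control, above the limit on 1 of 3 and 0 of 3 arrays, and its difference was 1.20, and 0.86 without 20 µM replicate 2. S100A4 and SNAI1 were bright, and both had lower means, at -0.45 and -0.50.

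Lists tied to what baicalein is known for gave few differences, though most of their members were dim. Of the 26 lipoxygenase and eicosanoid genes 17, and of the 28 iron genes 23, were above the limit on none of the 6 arrays. Over all genes it was 13764 of 19402. Of 26 lipoxygenase and eicosanoid genes, 0 had an unadjusted p under 0.05, against 5.26% of all genes, with a median of -0.07. PTGES3, a prostaglandin E synthase and HSP90 co-chaperone, had 1444, 1412 and 1043 in 20 µM, against 2031, 1577 and 1269 in control, passing on 1 of 3 and 3 of 3 arrays, with a difference of -0.66, and -1.12 without 20 µM replicate 2. HPGD, which degrades prostaglandins, was bright on all 6 with a difference of -0.09. Of 28 iron genes 0 passed, and TFR2, a sensor of transferrin iron, had 1961, 1632 and 1674 in 20 µM, against 3229, 1997 and 2733 in control, above on all 6, with a difference of -0.53 ± 0.42 (SE).

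Of 19 genes of flavonoid conjugation and efflux, 2 were higher and 1 lower at an unadjusted p under 0.05, against 5.26% of all genes. When 20 µM replicate 2 was left out, ABCC1 was no longer among them (unadjusted p = 0.118 by limma) and ABCC3, high on 20 µM replicate 1 alone, was (unadjusted p = 0.0377 by limma). ABCC1, an efflux pump of glutathione and glucuronide conjugates, was 1 of the 2 higher, with 1824, 1629 and 1590 in 20 µM, against 1643, 1338 and 1060 in control. It was above the limit on all 3 arrays of 20 µM and 2 of 3 of control, with a difference of 0.97 ± 0.43 (SE), no overlap after normalization, 0.78 without 20 µM replicate 2, and 0.001 from raw intensity. In 10 µM it read 1895, 1645 and 1529, with a mean 0.85 above the same controls. The other higher gene was SULT1E1 and the lower one SULT1C2, both sulfotransferases and both dim on all 6 arrays. Of 27 NRF2 targets 1 had an unadjusted p under 0.05, GPX2. No member was bright, and 19 were above the limit on none of the 6 arrays. Of 9 targets of the aryl hydrocarbon receptor 0 passed, and 1, ALDH3A1, without 20 µM replicate 2. ALDH3A1, an aldehyde dehydrogenase and 1 of those 9, had 1307, 1516 and 1014 in 20 µM, against 3324, 1336 and 1074 in control, passing on 1 of 3 and 2 of 3 arrays, with a difference of -0.66, and -1.32 without 20 µM replicate 2 (unadjusted p = 0.049 by limma). CYP1A2, a xenobiotic hydroxylase, read 37738 to 49522 in 20 µM and 39868 to 49354 in control, a difference of 0.08.

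Growth and death lists stayed near the 5.26% of all genes, but most of their members were dim. Of the DNA replication genes 34 of 45, and of the mitosis genes 38 of 47, were above the limit on none of the 6 arrays. So were 21 of 29 p53 targets and 20 of 39 apoptosis regulators. A gene below the limit throughout cannot be called unchanged. Of 45 DNA replication genes 1 was higher and 1 lower at an unadjusted p under 0.05, and so it was for 47 mitosis genes. POLD1, the catalytic subunit of DNA polymerase delta, had 11229, 12339 and 12824 in 20 µM, against 13245, 11706 and 12224 in control, a normalized difference of 0.22 ± 0.40 (SE), although its mean net intensity was lower in 20 µM. Of 29 p53 targets 1, SESN1, was higher, and TRIAP1, a survival factor, read 6647, 3385 and 6082 in 20 µM, against 8896, 7595 and 7205 in control, above on all 6, with a difference of -0.27, and -0.02 without 20 µM replicate 2. Of 39 apoptosis regulators 2 were lower, BID and CASP8. TRADD, an adaptor of the TNF receptor, had 1534, 1146 and 1505 in 20 µM, against 3144, 1588 and 1693 in control, passing on 1 of 3 and 3 of 3 arrays without overlap, with a difference of -0.90 ± 0.45 (SE). CASP9, the initiator caspase of the mitochondrial route, had 1624, 35022 and 1409 in 20 µM, against 2094, 1579 and 1659 in control, and its difference was 1.46 with all arrays and -0.44 without 20 µM replicate 2.

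Of 17 heat shock genes, 4 of the 6 bright ones had lower means in 20 µM, against 1466 of 2028 over all bright probes. Of the 17, 9 were above the limit on none of the 6 arrays. The median difference of the list was -0.32, and -0.07 without 20 µM replicate 2, with 0 at an unadjusted p under 0.05, against 5.26% of all genes. HSPA1B, an inducible HSP70, had 1954, 1028 and 1402 in 20 µM, against 2554, 1682 and 1977 in control, passing on 2 of 3 and 3 of 3 arrays, with a difference of -0.996 ± 0.48 (SE), and -0.55 without 20 µM replicate 2. HSPA1A, a near-identical copy whose transcript its probe may share, had -0.60, and -0.072 without that array. Of 27 genes of the unfolded protein and integrated stress response, HERPUD1 was higher and ERN1 lower at an unadjusted p under 0.05, also against 5.26%. Of the 5 bright ones 3 had a higher and 2 a lower mean, and 16 of the 27 were above the limit on none of the 6 arrays. ERN1, the sensor that splices XBP1, had 1799, 1108 and 1404 in 20 µM, against 2611, 2085 and 1698 in control, passing on 1 of 3 and 3 of 3 arrays without overlap after normalization but with overlap in net intensity, with a difference of -0.995 ± 0.43 (SE), and -0.72 without 20 µM replicate 2. ATF3, a stress-induced transcription factor, was above on all 6 arrays, with a normalized difference of 0.20 and a lower mean net intensity in 20 µM.

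Of 31 Wnt genes 2, NOTUM and LRP6, were lower at an unadjusted p under 0.05. In this list and those of TGF-beta, YAP, NF-kB, interferon, immediate early, cholesterol and hypoxia genes, the counts stand against the 5.26% of all genes. Most members of each were above the limit on none of the 6 arrays. FZD4, a Wnt receptor, read 8046, 4439 and 6036 in 20 µM, against 9465, 8123 and 7554 in control, above on all 6, with a difference of -0.12, and 0.062 without 20 µM replicate 2. Of 27 TGF-beta genes 1 was higher, ACVR1. SMAD3, a receptor-activated transcription factor, had 1617, 1355 and 1486 in 20 µM, against 2833, 1881 and 1794 in control, passing on 2 of 3 and 3 of 3 arrays without overlap, with a difference of -0.68 ± 0.40 (SE), and -0.75 without 20 µM replicate 2. Its other probes had differences of 0.18 and -0.18. Of 20 YAP and TAZ targets 0 passed. TEAD4, a DNA-binding partner of YAP, had 1329, 6726 and 806 in 20 µM, against 1540, 1064 and 1178 in control, and its difference was 0.53 with all arrays and -1.23 without 20 µM replicate 2. It passed on 1 of 3 arrays in each group, and the spot after it, FBXO2, read 8141 to 11342 on the other 8 arrays and 801 on 20 µM replicate 2.

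Of 28 NF-kB targets and inflammatory mediators 0 passed, and the bright ones CCL20, TNF and CXCL1 had differences of -0.17, 0.01 and -0.03. NFKB2, a subunit of the factor, had 1946, 1317 and 1670 in 20 µM, against 3484, 1734 and 2040 in control, above on all 6. Its difference was -0.60, while its second probe had 0.28. Of 31 interferon-stimulated genes 1 was higher, MX2, and OASL had 1960, 1465 and 3112 in 20 µM, against 3814, 2758 and 2633 in control, above on all 6. Of 29 immediate early genes EGR4 was higher and JUND lower, both dim on all 6 arrays. IER2 had 2745, 898 and 3111 in 20 µM, against 3175, 3395 and 3710 in control, passing on 2 of 3 and 3 of 3 arrays, with a difference of -1.39 over all arrays and -0.125 without 20 µM replicate 2. The immediate early list had a median of 0.20, the highest of the 32 lists, and 0.35 without that array. Of 25 cholesterol genes SC5DL and INSIG1 were higher. Of 27 hypoxia targets 1 was lower. It was PFKFB4, a regulator of glycolysis, with 1757, 800 and 1265 in 20 µM, against 2474, 1460 and 1841 in control, above on no array of 20 µM and all 3 of control, with a difference of -1.65 ± 0.65 (SE), and -0.74 without 20 µM replicate 2. Of 8 metallothioneins none passed.

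The marker lists gave JUP at 3692, 1589 and 3877 in 20 µM, against 5351, 4569 and 3805 in control, FAP at -0.28, CLDN5 at -0.19 and CD3D at -0.885 ± 0.50 (SE). Without 20 µM replicate 2 the difference of JUP was -0.08, against -0.51 with it, and that of CD3D was -0.35. The second CD3D probe had a difference of 2.02 with all arrays. FAP passed on 1 of 3 and 3 of 3 arrays, and CLDN5 and CD3D on 2 of 3 and 3 of 3. The leukocyte list had the lowest median of the 32, at -0.39, and -0.21 without 20 µM replicate 2. Among 15 housekeeping genes 0 had an unadjusted p under 0.05 and the median was 0.02. Of these 15, 9 were above the limit on none of the 6 arrays and 1 on all 6, so the median is largely of dim genes. TBP had 1670, 1388 and 1703 in 20 µM, against 1561, 1448 and 1170 in control, above the limit on 2 of 3 arrays of each group. Over the 32 lists, no member passed after adjustment.

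**Figure D5:**
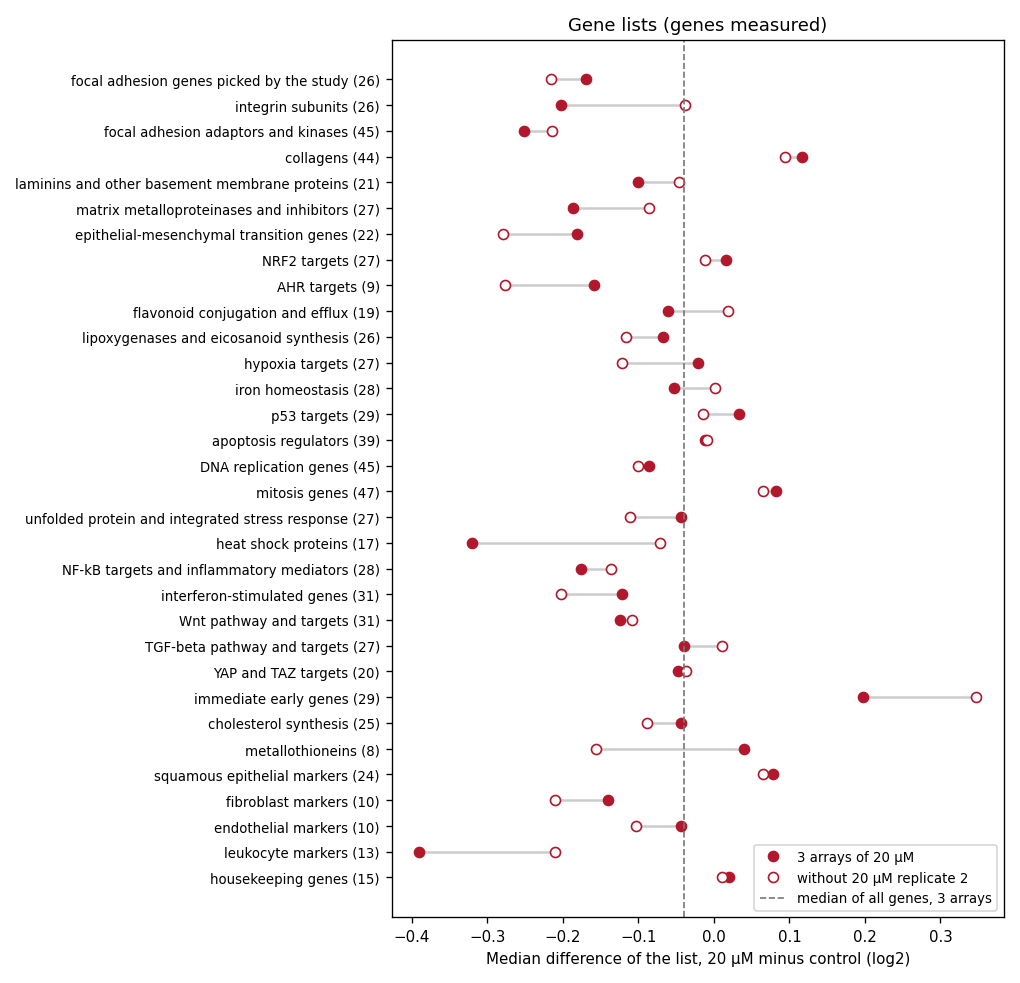
Median difference between 20 µM baicalein and control on the log2 scale for 32 gene lists, with the number of genes measured, with 3 arrays of 20 µM (filled) and without 20 µM replicate 2 (open). The dashed line is the median over all genes at -0.04, and the lists lie between -0.39 and 0.20 with 3 arrays.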

How the data were processed

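RNA of HK-1 cells was labelled with Cy3 and hybridized to 1-colour arrays. Per the file headers, the deposited scanner files hold raw, local background and net intensity per spot, and net was raw minus background in every spot. The authors also deposited a processed table, used as an alternative only and treated as a score, because its scale and centring are unknown. Its rank order followed net intensity. The study's methods name log2 values, median and quantile normalization and an equal-variance t-test, and describe control and 10 µM only.

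Raw intensity was background corrected by normexp (offset 50), log2-transformed, median centred and quantile normalized over 29187 gene probes. The 9 arrays were then fitted by group in limma 3.58.1 (R 4.3.3), with Benjamini-Hochberg adjustment over 25378 named probes. The code was tested on simulated data. Each probe has 1 spot, and the number of arrays limits the precision. Nothing beyond the submitters' word says how separate the replicates were, so a p-value reflects only how these arrays varied, which may be technical. A bound on a fold sets the bright group's mean against, per dim array, the higher of its own value and the lowest value above the empty spots.

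Genes were named by rule, as the 10 bright probes of lowest p each way, the member of lowest p in each list among those above the empty spots in both groups, and ITGB8. Genes given for 20 µM replicates 1 and 3 or for segments 1 to 3, other list members, and the dim probes of the closing section were chosen after their values were seen. Of 810 list genes 779 were found by array name, 16 of them by an older name. The members and lists were chosen with earlier results of these data known. The values of 2 list members are not reported here.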

Additional observations from a re-analysis of the deposited data

Results flagged for a closer look

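Empty spots, which carry no probe, showed signal on 2 of the 20 µM arrays beyond that on any control array. Of 8926 empty spots, 25 on 20 µM replicate 1, 57 on 20 µM replicate 2 and 4 on 20 µM replicate 3 exceeded 4 times the array's median net intensity, against 2, 12 and 3 on the control arrays. The 10 µM arrays had 6, 12 and 3. On 20 µM replicate 2, 54 of the 57 lay in segments 6 to 10 of the listed order, where its signal also sat at the preceding spot. On 20 µM replicate 1, 15 of the 25 did.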

How the results depend on the processing

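Probes past adjusted p numbered 0 in 23 of 26 alternatives. The methods' t-test called 1 (LOC100132288), raw intensity without 20 µM replicate 2 called 1 (VEZF1, with 1278, 1060 and 3907 in 20 µM, against 967, 1089 and 939 in control), and leaving out 1 array gave 0 to 2, the 2 being CCDC51 and C1orf54 without 20 µM replicate 3. At an unadjusted p under 0.05, the 1332 probes became 594 from raw intensity, 169 among bright probes only, 321 in segments 1 to 3, and 1136 to 1876 with 1 array left out. The share with a higher mean, 52.8% of the 1332, became 13.0% of those past the threshold among bright probes only, 33.6% in segments 1 to 3 and 36.1% when the t-test was run on the deposited table. The 142 bright probes became 394 from raw and 317 from net intensity, 409 in the authors' table, 318 with median centring alone, 88 with cyclic loess, 87 with 6 arrays alone, 227 with a trended robust fit, and 84 to 406 with 1 array left out (84 without control replicate 1, 90 without control replicate 2, 88 without control replicate 3, 240 without 20 µM replicate 1, 406 without 20 µM replicate 3). The settings confined to segments 1 to 3, to raw or net intensity without 20 µM replicate 2, the t-test on the table, and the bounds without 20 µM replicate 2 were chosen after seeing the data.

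Arrays of one replicate number share a scan date. The deviations of same-numbered 20 µM and control arrays from their group means correlated at -0.00704, -0.00273 and -0.0317 over probes, and at -0.23, -0.252 and -0.331 from raw intensity, where differently numbered arrays had 0.0872 to 0.213. None of the values for same-numbered arrays was above 0.1, and those from raw intensity were all negative. The number was not used as a block in the values of the report. With the replicate block over 9 arrays 1321 probes had an unadjusted p under 0.05 and 0 an adjusted one, and with the replicate block over 6 arrays 1069 and 0.

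Over 73 named probes and 11 alternatives each, 14 of 803 differences changed sign, in 10 probes, and 2 were called. Cyclic loess was not among the 11. Most of the 73 were chosen for a low p on these arrays, so a kept sign is not a separate test. With 1 array left out, the lowest and highest differences were -0.883 and 0.02 for COMP, -0.962 and 0.121 for ITGB4, -0.078 and 1.539 for COL4A2, -0.335 and 0.062 for FZD4, -1.225 and 2.009 for TEAD4, -0.442 and 0.273 for CLDN5, -0.995 and 0.117 for the first ITGB8 probe, -0.565 and 0.29 for the second, and -1.371 and 2.304 for ZBTB26, a zinc-finger protein. From raw intensity COL4A2 had -0.086 and FZD4 0.059, and with median centring alone POLD1 had -0.027. The cause was not tested. Most probes lay near the empty spots, and the part of low signal in these results was not tested either.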

Other observations

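The probes of lowest p over all named probes were mostly dim. In them 20 µM replicate 2 did not stand apart. A low p favours probes whose arrays lie close within a group, so this follows from the choice and is no test of that array. HIST1H3D, a histone H3 gene, read 1230, 1163 and 1223 in 20 µM, against 924, 764 and 721 in control, with an unadjusted p of 6.8e-05 by limma, and was not above the empty spots on any of the 6 arrays. C5orf51 read 1220, 1130 and 1237 in 20 µM, against 919, 824 and 832 in control, and CASR, the calcium-sensing receptor, read 909, 799 and 911 in 20 µM, against 1234, 1179 and 1177 in control, both also dim throughout. The other probes of both genes had differences of the opposite sign. TRIM3, a ubiquitin ligase, read 918, 870 and 882 in 20 µM, against 1580, 1139 and 1059 in control, above the limit on 1 control array only. TAPBP, tapasin of MHC class I loading, read 957, 924 and 994 in 20 µM, against 2295, 1358 and 1493 in control, above on no array of 20 µM and all 3 of control, and its other 3 probes had differences on both sides of 0. CECR1, adenosine deaminase 2, read 1785, 1442 and 1691 in 20 µM, against 1067, 1037 and 867 in control, above on 2 of 3 and 0 of 3 arrays, at least 1.66-fold higher in 20 µM, with 1124, 1115 and 1127 in 10 µM. No adjusted p was under 0.881 in this comparison.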
